A study of Mus musculus with 2 samples.

Results

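The genes described here are 51 genes of BMP and TGF-beta signalling, taken by symbol and matched to the Ensembl identifiers of the deposited gene tables, out of 43346 annotated genes. They were sorted into 9 roles: 10 BMP-type ligands and GDFs, 5 TGF-beta and activin ligands, 6 type I receptors, 4 type II receptors, 2 co-receptors, 8 antagonists and follistatins, 8 Smads, 4 Id genes and 4 latent TGF-beta binding proteins. Total RNA longer than 200 nt was sequenced from whole limb of B6NCrl mouse embryos at embryonic day 14.5, in 2 libraries of 1 group, each made from 10 ng of RNA of the 4 limbs of a pup with spike-in RNA added. No genotype, treatment or other stage was compared, so the results below are levels, ratios between genes and differences between the libraries. Donor, pup and pregnancy numbers are identical in the labels of both samples, while the collection days differ and the sex is given as pooled. The libraries were taken as replicates on the labels' word, and each SD over n = 2 measures only the spread between these samples, which may be technical.

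BMPs, GDFs, activins and TGF-betas are secreted dimers that bring together type I and type II serine/threonine kinase receptors. The type I receptor then phosphorylates Smad1, Smad5 and Smad9 (mostly BMP receptors) or Smad2 and Smad3 (mostly TGF-beta and activin receptors), which enter the nucleus with Smad4. In the developing limb these signals are known for patterning digits, removing interdigital tissue, starting cartilage condensation and joint formation, and restraining muscle growth, with secreted antagonists setting where the ligands act.

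The libraries held 34193161 and 32879425 expected counts (replicates 1 and 2). Of 8 limb mesenchyme markers, led by Prrx1 and Prrx2, 8 were at 1 TPM (a level per transcript length) or more in both libraries, and so were 10 of 10 muscle, 7 of 8 red blood cell, 8 of 8 epidermis, 8 of 8 endothelium, 8 of 8 cartilage and 6 of 6 leukocyte markers. No liver marker of 5 and no lung or heart marker of 5 reached that level in both libraries. The libraries differed in some summed marker levels: limb mesenchyme markers were 294 and 368 TPM and muscle markers 2837 and 1914 TPM. Red blood cell markers were 25926 and 17226 TPM, and epidermis markers 1710 and 1452 TPM. Sums were closer for cartilage (1111 and 1092 TPM), endothelium (246 and 243 TPM) and leukocyte markers (305 and 284 TPM). Single genes could still differ, and Col2a1 (584 and 587 TPM) weighed heavily in the cartilage sum. By the exact binomial test described below, 6 of 8 cartilage markers were lower in replicate 2 and 1 higher (median log2 count ratio -0.23). It called 2 of 8 endothelium and 2 of 6 leukocyte markers lower and 0 higher. Of all tested genes it called 14.3% lower and 13.2% higher.

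In both libraries 50 of the 51 genes reached 1 TPM, against 34.0% of all annotated genes and 61.4% of protein-coding genes. The exception was Smad9, at 0.91 and 1.32 TPM. The 51 genes were chosen with earlier results of these data known, so this share does not describe the pathway as a whole. Of 75 other matched genes of the pathway 55 reached 1 TPM in both libraries, and of 17 further ligands 5 did. By mean level 4 genes were above 100 TPM (Fstl1, Id3, Id2 and Id1), 14 between 30 and 100 TPM, 14 between 10 and 30 TPM and 19 between 1 and 10 TPM. The median of the 51 mean levels was 13.7 TPM, beside 18.6 TPM for the detected protein-coding genes. Summed over the 51 genes, the level was 2436 TPM in replicate 1 and 2661 TPM in replicate 2, and the antagonists and the Id genes together held most of it, with mean sums of 787 and 812 TPM.

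**Figure D1:**
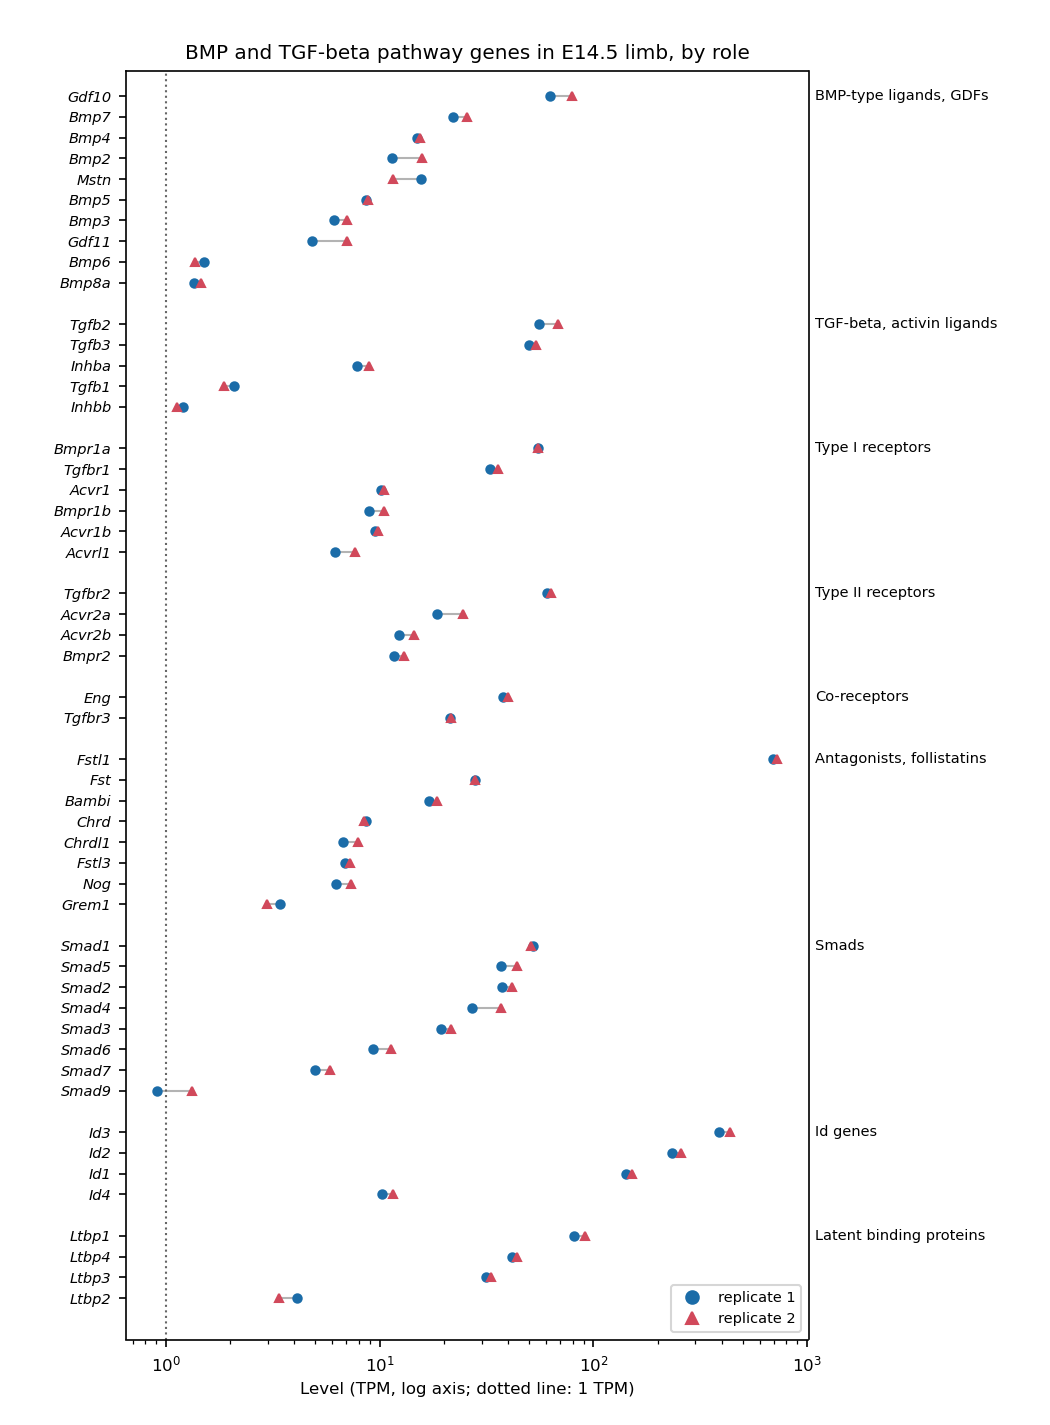
Level of each of the 51 genes in TPM (log axis) in replicate 1 (circles) and replicate 2 (triangles), grouped by role; the dotted line marks 1 TPM. Fstl1 and 3 Id genes lie above 100 TPM, and Smad9 is the one gene with a library left of the line.

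Among the BMP-type ligands, Gdf10 was the highest, at 63.0 and 79.1 TPM (71.1 ± 11.4, SD, n = 2). Gdf10 encodes a relative of BMP3, a ligand known to oppose other BMPs in bone, and Bmp3 itself was at 6.12 and 7.01 TPM. Bmp7, known from limb bud ectoderm and interdigital mesenchyme, was at 22.0 and 25.6 TPM. Bmp4 was at 15.0 and 15.4 TPM and Bmp2 at 11.5 and 15.8 TPM; both are known as signals for interdigital cell death and bone formation, and their levels overlapped. Bmp5, whose loss gives the short-ear skeletal phenotype in mice, was at 8.65 and 8.86 TPM. Bmp6 was low at 1.51 and 1.37 TPM, and Bmp8a at 1.36 and 1.46 TPM. Both low values are uncertain. Bmp6 (chr13:38345107-38500302) shares 224 nt of exon with Txndc5 on the opposite strand in the GENCODE M21 annotation. Txndc5 was at 285 and 282 TPM, and whether reads were counted by strand is unknown. However, Bmp6-201 is 2410 nt long in GENCODE M4, which the deposited values use, and 3593 nt in M21. Whether the overlap lies within the M4 transcript was not tested. The expected counts of Bmp6 were whole, 80 and 68. Bmp8a has a near-identical copy, Bmp8b (1.03 and 0.72 TPM), and its expected counts were fractional, 60.4 and 59.4.

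Mstn and Gdf11 are close relatives with different known roles: myostatin restrains muscle growth and is made by skeletal muscle, while Gdf11 acts in axial patterning. Mstn was at 15.7 and 11.6 TPM, and Gdf11 at 4.85 and 7.04 TPM. Mstn was thus the higher of the pair in both libraries, by 3.19-fold in replicate 1 and 1.63-fold in replicate 2, with no overlap between the genes. In bulk tissue, fewer cells of a type and less RNA per cell cannot be told apart.

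The TGF-beta ligands were unequal. Tgfb2 was at 55.8 and 68.1 TPM and Tgfb3, known for its role in tendon and palate, at 49.8 and 54.1 TPM. Tgfb1, the form best known from platelets, immune cells and endothelium, was at 2.09 and 1.87 TPM from 92 and 71 counts. Of the activin subunits, Inhba (activin A) was at 7.84 and 8.96 TPM and Inhbb (activin B) at 1.2 and 1.13 TPM. The order was thus Tgfb2 and Tgfb3, then Inhba, then Tgfb1, then Inhbb, in both libraries.

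Tgfb2 RNA was divided between coding transcripts whose coding sequences differ by an exon in the propeptide region, the part that holds the ligand latent. Tgfb2-206 includes an 84-nt in-frame exon of 28 codons (chr1:186690721-186690804, GRCm38, minus strand) that Tgfb2-201 lacks. It is given because it is the coding difference between these transcripts. The exon is in capitals and 24 coding bases stand on each side.
Tgfb2-206: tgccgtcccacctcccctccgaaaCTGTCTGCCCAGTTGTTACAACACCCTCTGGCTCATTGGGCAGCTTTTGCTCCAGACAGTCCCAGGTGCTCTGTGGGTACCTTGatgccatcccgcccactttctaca
Tgfb2-206 was at 12.6 and 17.9 TPM and Tgfb2-201 at 17.7 and 19.4 TPM, so Tgfb2-206 made up 41.6% of the pair in replicate 1 and 48.0% in replicate 2. The transcripts also differ in full length, 3485 nt for Tgfb2-206 and 5116 nt for Tgfb2-201. The share therefore rests on noncoding sequence too and does not measure the exon alone. The deposited credibility intervals of the pair, whose level is not stated, did not overlap in replicate 1 (10.3 to 14.3 and 16.0 to 18.7 TPM) and did in replicate 2 (15.3 to 19.3 and 17.6 to 20.4 TPM). By TPM the first-ranked Tgfb2 entry was neither of them but Tgfb2-205, an 898-nt retained-intron transcript with 34.5% and 35.4% of the gene's TPM. By expected counts that entry held 10.2% and 10.6%, and Tgfb2-201 ranked first with 59.1% and 53.7%.

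Bmpr1a was the highest type I receptor gene, at 55.1 and 55.4 TPM (55.2 ± 0.156, SD, n = 2). Bmpr1b, its relative known for a role in digit cartilage, was at 8.96 and 10.4 TPM. Tgfbr1, the type I receptor for TGF-beta, was at 33.0 and 35.9 TPM. Acvr1, a BMP receptor, was at 10.2 and 10.5 TPM, and Acvr1b, the activin receptor, at 9.51 and 9.88 TPM. Acvrl1, a receptor known from endothelium, was the lowest of the 6 at 6.17 and 7.68 TPM, beside summed endothelial markers (led by Egfl7 and Esam) of 246 and 243 TPM. Levels of Acvr1, Acvr1b and Bmpr1b lay close together, and Bmpr1b overlapped both of the others.

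Among the type II receptors, Tgfbr2, the TGF-beta receptor, stood highest at 61.0 and 63.6 TPM. Acvr2a was at 18.7 and 24.5 TPM and Acvr2b at 12.4 and 14.6 TPM; both bind activins, myostatin and some BMPs. Bmpr2, the BMP type II receptor, was at 11.7 and 13.1 TPM and overlapped Acvr2b. Acvr2a shares 446 nt of exon with Orc4 on the opposite strand (69.6 and 76.8 TPM), so its value is uncertain. Of the co-receptors, Eng (endoglin, known from endothelium) was at 37.9 and 40.1 TPM and Tgfbr3 (betaglycan, which presents TGF-beta to its receptors) at 21.3 and 21.6 TPM. Eng shares 61 nt of exon with Fpgs on the opposite strand (23.7 and 25.7 TPM).

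A pair of type II receptors also had alternative in-frame exons, given because they are the coding difference between each gene's main transcripts. In Tgfbr2-202 the exon is 75 nt or 25 codons (chr9:116158271-116158345, GRCm38, minus strand), and in Acvr2b-202 it is 24 nt or 8 codons (chr9:119428201-119428224, plus strand). Capitals mark the exon and 24 coding bases flank it on each side.
Tgfbr2-202: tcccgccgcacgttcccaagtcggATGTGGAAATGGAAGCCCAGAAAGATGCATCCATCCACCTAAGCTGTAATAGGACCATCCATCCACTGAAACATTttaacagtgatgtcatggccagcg
Acvr2b-202: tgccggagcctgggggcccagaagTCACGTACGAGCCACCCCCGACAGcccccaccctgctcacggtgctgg
Tgfbr2-202 was at 20.6 and 20.9 TPM and Tgfbr2-201, without the exon, at 40.4 and 42.8 TPM, so the exon was in 33.7% and 32.8% of the pair. Their credibility intervals did not overlap in either library. Acvr2b-202 was at 8.32 and 7.70 TPM and Acvr2b-201, without the exon, at 4.07 and 6.86 TPM, a share of 67.2% and 52.9% (60.02% ± 10.1, SD, n = 2). As deposited, Acvr2b-202 is 1696 nt and Acvr2b-201 1729 nt long, so they also differ outside the exon. This share therefore does not measure the exon alone. The Acvr2b intervals were apart in replicate 1 (6.21 to 9.95 and 2.39 to 5.78 TPM) and overlapped in replicate 2 (5.40 to 9.76 and 4.57 to 8.81 TPM). The exons were read from the GENCODE M21 models of the same transcript identifiers, and the full lengths of Tgfbr2-201, Tgfbr2-202 and Acvr2b-202 differ between that release and the M4 release of the deposited tables.

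Fstl1 (chr16:37776873-37836514) was the highest of the 51 genes, at 691 and 727 TPM (709 ± 25.3, SD, n = 2), rank 147 among protein-coding genes. It encodes a secreted glycoprotein of the follistatin-related group that is abundant in mesenchyme. The BMP traps were far lower. Chrd (chordin) was at 8.66 and 8.42 TPM, Chrdl1 (chordin-like) at 6.77 and 7.89 TPM, Nog (noggin, required for joints) at 6.24 and 7.33 TPM, and Grem1 (gremlin, known from the early limb bud) at 3.43 and 2.98 TPM. Fst (follistatin, which traps activins and myostatin) was at 28.0 TPM in each library and its relative Fstl3 at 6.92 and 7.31 TPM. Bambi, a membrane pseudoreceptor without a kinase domain, was at 17.1 and 18.5 TPM. Chrd and Fstl3 share exon sequence with Thpo (239 nt) and Prss57 (1157 nt) on the opposite strand, but those genes were at no more than 1.06 TPM.

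The Smads that carry BMP signals were led by Smad1 at 52.1 and 51.3 TPM and Smad5 at 37.1 and 43.9 TPM, while Smad9 stayed near 1 TPM on 110 and 149 counts. Of the Smads for TGF-beta and activin, Smad2 was at 37.3 and 41.8 TPM and Smad3 at 19.3 and 21.5 TPM. Smad4, the shared partner, was at 27.2 and 37.0 TPM. The inhibitory Smads were lower, with Smad6 at 9.27 and 11.3 TPM and Smad7 at 5.01 and 5.89 TPM. Each of the 7 Smads other than Smad9 was above 1 TPM in both libraries, and the inhibitory pair did not overlap the other 5.

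The Id genes, helix-loop-helix inhibitors of differentiation that BMP signals are known to induce, were the highest role by median. Id3 was at 385 and 434 TPM, Id2 at 233 and 256 TPM, and Id1 at 142 and 152 TPM. Id4 was at 10.3 and 11.6 TPM. The order Id3, Id2, Id1, Id4 held in both libraries with no overlap between neighbours. RefSeq promoters (GRCm38.p6, 250 bases before to 50 after the start) were matched for 37 of the 51 genes, 45 promoters in all, and those of Id3 and Id4 are shown because these genes mark the ends of the range within the family. Capitals mark GGCGCC, a GC-rich element described for Smad1 and Smad5, and CAGAC or its reverse complement GTCTG, the Smad-binding box; neither motif overlaps the other.
Id3, chr4:136143572-136143871, plus strand: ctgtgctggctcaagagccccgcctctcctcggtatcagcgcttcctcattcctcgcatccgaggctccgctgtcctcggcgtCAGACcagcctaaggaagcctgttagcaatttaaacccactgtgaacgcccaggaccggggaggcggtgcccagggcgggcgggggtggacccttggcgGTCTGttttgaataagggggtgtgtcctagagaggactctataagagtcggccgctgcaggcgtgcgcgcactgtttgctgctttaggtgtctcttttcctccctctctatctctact
Id4, chr13:48260866-48261165, plus strand: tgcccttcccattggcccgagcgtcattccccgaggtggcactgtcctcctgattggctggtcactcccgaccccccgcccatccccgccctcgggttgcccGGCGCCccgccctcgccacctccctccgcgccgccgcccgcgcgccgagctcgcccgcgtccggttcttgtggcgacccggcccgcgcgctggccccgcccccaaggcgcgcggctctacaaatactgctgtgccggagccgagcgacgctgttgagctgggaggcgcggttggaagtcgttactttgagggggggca
The Id3 window held CAGAC or GTCTG at 2 places and no GGCGCC, and the Id4 window held 1 GGCGCC and no CAGAC. The Id2 window held the same as that of Id4, 1 GGCGCC and no CAGAC, although Id2 was at 233 and 256 TPM. Among the Id genes with a window, the motif counts thus did not follow the order of levels. Id1 had no matched promoter. Over both strands GGCGCC was in 14 of the 45 promoters (31.1%) and in 11.9% of 32851 RefSeq promoters of the same length. Genes with several starts were counted more than once, and the GGCGCC windows of Ltbp4 overlap each other, as do those of Smad5. CAGAC was in 48.9% of the 45 and 49.6% of all. GGGCGG, a GC box that can share bases with GGCGCC, was in 71.1% of the 45 and 35.7% of all, and TATAAA in 13.3% and 13.6%. These counts describe letters in a window and not binding.

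Latent TGF-beta binding proteins tether the inactive ligand to the matrix. Ltbp1 was at 80.8 and 91.4 TPM, Ltbp4 at 41.6 and 43.7 TPM and Ltbp3 at 31.5 and 33.3 TPM. Ltbp2, an elastic-fibre protein that is not known to carry latent TGF-beta, was at 4.09 and 3.40 TPM. The order was the same in both libraries and no neighbours overlapped.

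Ratios between related genes were set for 15 pairs or sums, on the log2 scale of TPM + 0.1. Each was read against the 95th percentile of the library-to-library log2 difference of the 500 genes nearest in level to its lower side. With 2 libraries a sign-flip test cannot give p below 0.5, so no p is given. By the mean, 13 ratios lay beyond that spread and 2 within it: Bmp4 over Bmp2 (0.17 ± 0.29, SD, n = 2, against 0.48) and Tgfb2 over Tgfb3 (0.25 ± 0.12, against 0.30).

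The widest ratios were within families. Smad1 plus Smad5 exceeded Smad9 by 88.3-fold in replicate 1 and 67.1-fold in replicate 2 (log2 6.27 ± 0.28, spread 3.08). Id1, Id2 and Id3 together exceeded Id4 by 73.0-fold and 71.9-fold (6.18 ± 0.01, spread 0.48). The Id4 transcript is 1660 nt in M4 and 3849 nt in M21, and the effect on this ratio was not tested. Tgfb1 was 25.5-fold and 34.6-fold below Tgfb2 (-4.89 ± 0.31, spread 1.53). Inhba exceeded Inhbb by 6.11-fold and 7.37-fold (2.75 ± 0.19), close to a spread of 2.613. The value of replicate 1 alone, 2.611, lay within that spread.

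Among receptors, Bmpr1a exceeded Bmpr1b by 6.10-fold and 5.26-fold (2.50 ± 0.15, spread 0.57). Acvrl1 was 5.28-fold and 4.63-fold below Tgfbr1 (-2.31 ± 0.13, spread 0.66). Acvr2a exceeded Acvr2b by 1.502-fold and 1.68-fold (0.67 ± 0.11, spread 0.49). These receptor ratios kept their direction in each library. The Acvr2a value is uncertain for its exon overlap with Orc4, and a spread between libraries does not cover an error that both share.

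Signalling arms could be compared the same way. The BMP Smads (Smad1, Smad5 and Smad9) summed to 90.04 and 96.5 TPM and Smad2 plus Smad3 to 56.6 and 63.3 TPM, a ratio of 1.59-fold and 1.52-fold (0.64 ± 0.04, spread 0.29). Smad6 exceeded Smad7 by 1.83-fold and 1.90-fold (0.90 ± 0.04, spread 0.71). The antagonists Nog, Grem1, Chrd and Chrdl1 summed to 25.1 and 26.6 TPM, against 58.6 and 67.1 TPM for Bmp2, Bmp4, Bmp5, Bmp6 and Bmp7, 2.33-fold and 2.51-fold lower (-1.27 ± 0.08, spread 0.36). That direction holds for these 4 traps and not for the full roles: all 8 antagonists and follistatins, most of it Fstl1, summed to 768 and 807 TPM, and all 10 BMP-type ligands to 149.6 and 173 TPM.

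Bmp7 over Bmp4 was 1.46-fold and 1.65-fold (0.64 ± 0.13, spread 0.48). Ltbp3 was 2.56-fold and 2.74-fold below Ltbp1 (-1.41 ± 0.07, spread 0.33). Gdf11 over Mstn had the largest SD of the 15 (-1.19 ± 0.68, spread 0.74). It was -1.67 in replicate 1 and -0.71 in replicate 2, and the value of replicate 2 alone lay within the spread.

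**Figure D2:**
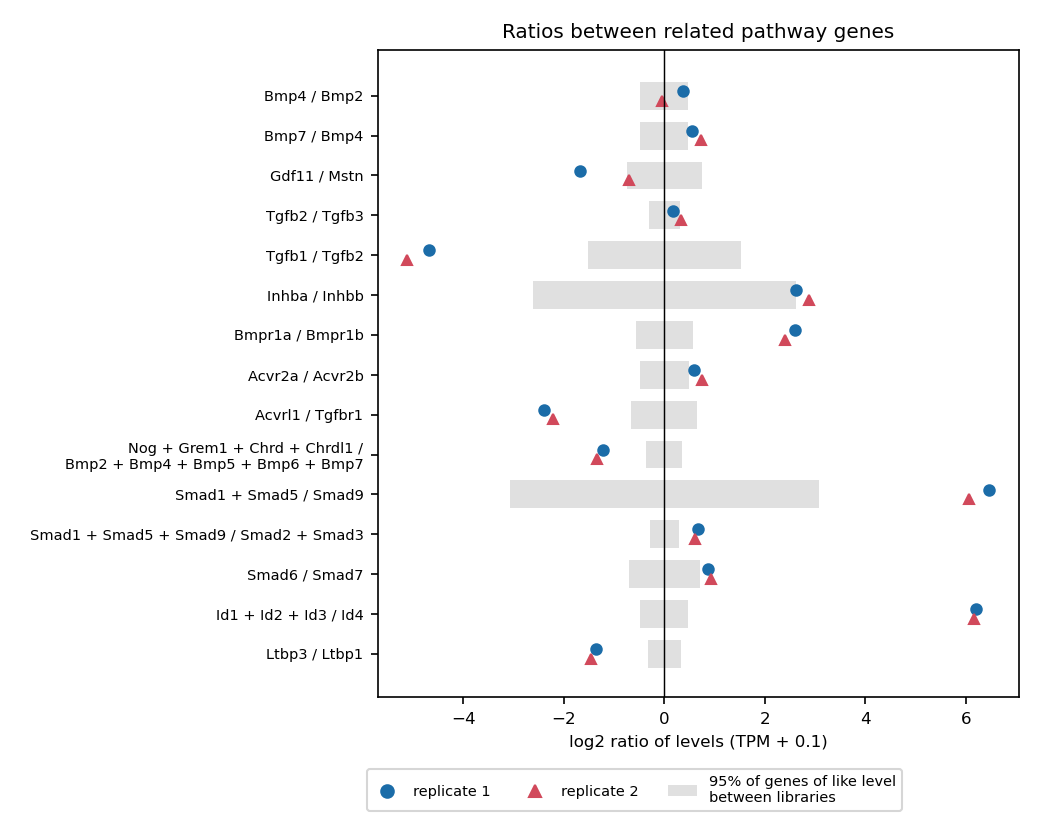
Log2 ratio of levels (TPM + 0.1) for 15 pairs or sums of related genes in replicate 1 (circles) and replicate 2 (triangles); grey bars span the 95th percentile of the difference between libraries for the 500 genes nearest in level. Smad1 plus Smad5 over Smad9 and Id1, Id2 and Id3 over Id4 lie above 6, and Bmp4 over Bmp2 and Tgfb2 over Tgfb3 have means within the bars.

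The libraries were then compared for each gene by an exact binomial test, two-sided, on rounded expected counts, Benjamini-Hochberg adjusted over 19153 genes; it covers counting error only and compares these libraries, not conditions. Of the 51 genes, 13 were called higher in replicate 2 (background 13.2% of tested genes), 4 lower (14.3%) and 34 were not called. The 17 calls make up 33.3%, beside 27.6% of all tested genes and 33.2% of the 10521 genes with a like number of counts (480 to 12697 summed over both libraries). The share was therefore near that of other genes of like depth. The median log2 count ratio of the 51 genes was 0.05, with 35 of 51 above 0, and that of all tested genes was 0.00.

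The 2 largest called differences were in ligands. Mstn fell from 940 to 646 counts, a log2 ratio of -0.52 (95% interval -0.66 to -0.37, adjusted p = 6.28e-11, exact binomial test). Muscle markers moved the same way, 10 of 10 lower with a median log2 ratio of -0.61 and none at 0, and their part in the Mstn result was not tested. Gdf11 rose from 442 to 599 counts (0.46, 0.28 to 0.64, adjusted p = 4.01e-06) and Bmp2 from 912 to 1174 counts (0.39, 0.26 to 0.52, adjusted p = 1.98e-08). Gdf10 rose by 0.25 and Tgfb2 by 0.20 on the log2 scale. Limb mesenchyme markers were higher in replicate 2 for 8 of 8 genes with a median of 0.30, and their part in these rises was not tested. The other 10 ligand genes were not called.

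Smads were the role with most calls, 5 of 8 higher and 1 lower, beside 13.2% and 14.3% of tested genes. The 8 of 8 limb mesenchyme markers that were higher (median log2 ratio 0.30) moved the same way as those 5, and their part in the Smad differences was not tested. The edgeR exact test called none of the 8 Smads, with the lowest adjusted p at 0.974 for Smad4. Smad4 rose from 1903 to 2375 counts (0.35, 0.26 to 0.43, adjusted p = 2.90e-13, exact binomial test). Smad9 rose from 110 to 149 counts (0.46, 0.10 to 0.83, adjusted p = 0.0412). Smad6 (0.21), Smad5 (0.17) and Smad2 (0.12) were also called higher. Smad1 was called lower by a small margin (-0.09, adjusted p = 0.0351), a call that was lost when libraries were scaled by total counts or by spike-ins (adjusted p = 0.180 and 0.485). The Smad6 call was lost with DESeq2 size factors (adjusted p = 0.0528), and the Smad9 call with no filter on low counts (adjusted p = 0.0524).

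Of the receptors and co-receptors, Acvr2a was called higher (0.24, adjusted p = 3.94e-08) and Tgfbr3 lower (-0.20, adjusted p = 6.44e-06). Tgfbr3 fell from 2889 to 2471 counts while its TPM was 21.3 and 21.6. In replicate 2, 10.4% of Tgfbr3 TPM was assigned to a 1368-nt retained-intron transcript, Tgfbr3-204, that was listed at 0 in replicate 1; this transcript was picked out after its values were seen. Its credibility intervals overlapped (5.41e-06 to 1.75 TPM in replicate 1 and 0.00458 to 3.95 TPM in replicate 2), so the difference was not resolved. None of the 6 type I receptors was called by the exact binomial test, although Bmpr1a had an unadjusted p of 0.0290. Of the rest, Id3 (0.10), Ltbp1 (0.14) and Fstl1 (0.03) were called higher and Ltbp2 lower (-0.32, adjusted p = 0.00239). The Fstl1 call was lost with DESeq2 size factors (adjusted p = 0.230).

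A count model that adds a spread between replicates gave no call. The edgeR exact test at the common dispersion of the libraries (biological coefficient of variation 0.0992) called 0 of 51 genes, beside 0.668% of the 16920 genes it tested, and 2 genes, Mstn and Gdf11, had an unadjusted p under 0.05 (background 6.62%). That dispersion was estimated from the same pair of libraries. By size, 1 gene had a log2 TPM ratio of 0.5 or more, Gdf11 at 0.53. The background was 9.41% of the 15307 genes whose mean reached 1 TPM (5.42% higher and 3.99% lower). These ratios were not centred, and their median over the 15307 genes was 0.07. That Gdf11 passed the cut and Mstn (-0.44) did not depends on this offset.

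**Figure D3:**
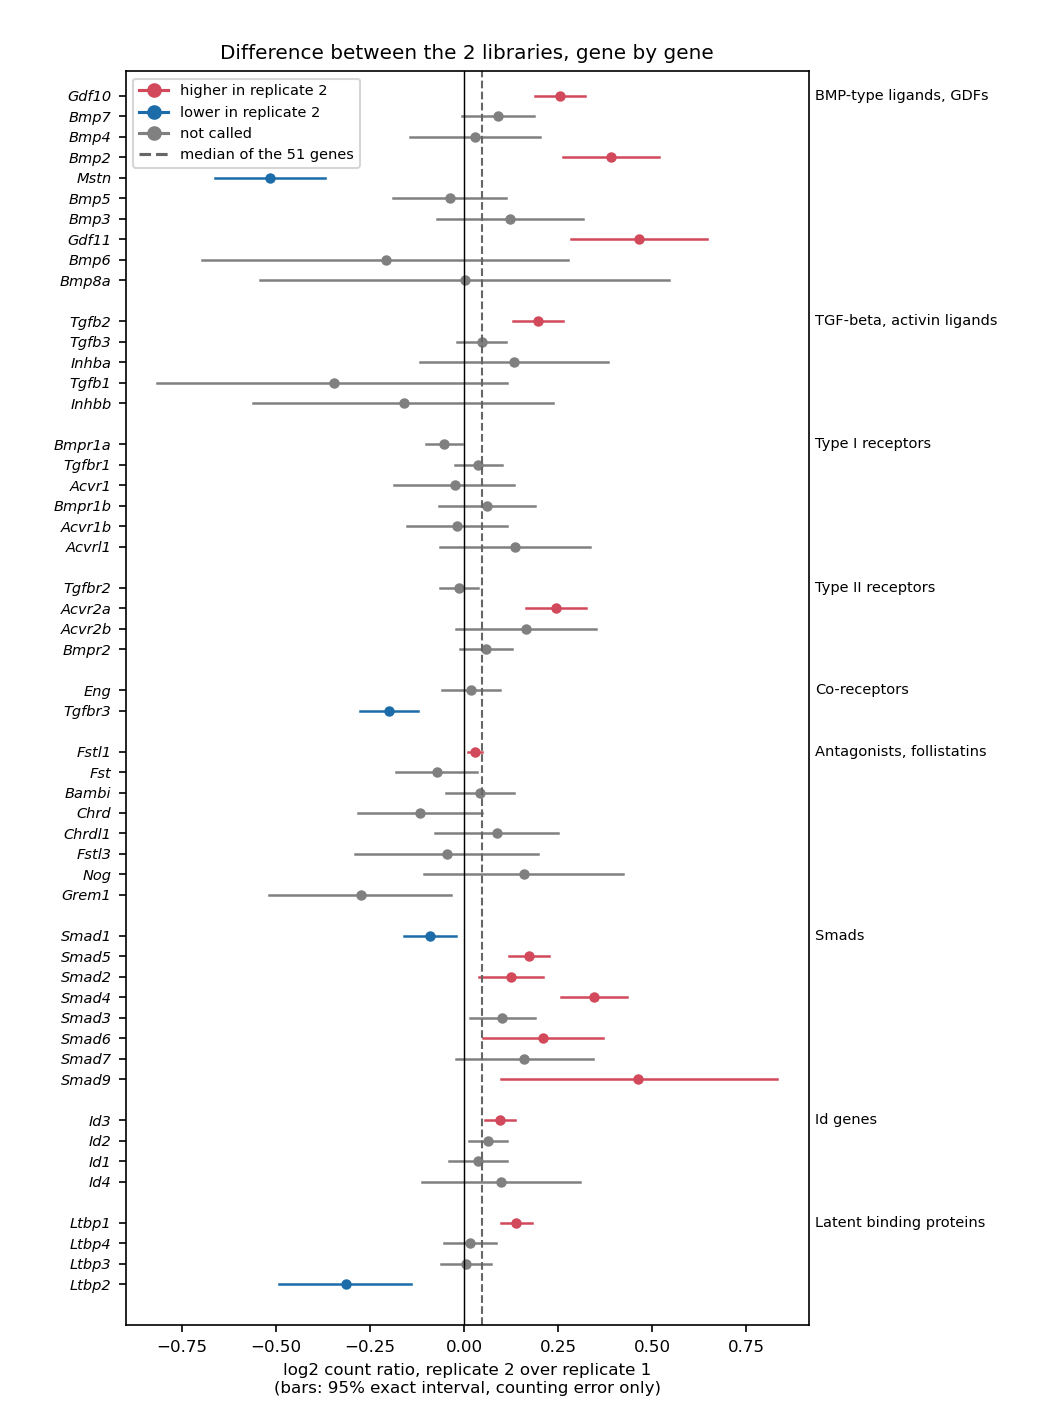
Log2 count ratio of replicate 2 over replicate 1 for each of the 51 genes with its 95% exact interval (counting error only), grouped by role; red is called higher, blue called lower and grey not called by the exact binomial test. The 4 genes called lower are Mstn, Tgfbr3, Smad1 and Ltbp2, and the dashed line at 0.05 is the median of the 51 genes.

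The deposited transcript tables list 168 transcripts for the 51 genes. Full length was the same in M4, which the deposited values use, and in M21 for 153 of them. It differed for Gdf10-201 (2507 nt in M4 and 5210 nt in M21), Id4-201 (1660 and 3849 nt), Bmp3-201 (3112 and 6548 nt) and Fst-201 (2337 and 1851 nt), among others. The effect on levels, ratios and shares was not tested. Of the 35 genes with 2 or more transcripts, the same transcript led by TPM in both libraries in 34, and it held 60% or more in both libraries in 30 and 90% or more in 15. The leading transcript was protein-coding in 34 of 35 (the exception was Tgfb2). In 24 it was the protein-coding one of greatest full length, which need not have the longest coding sequence. Chrdl1-202, counted here, has 999 coding nt against 1341 in Chrdl1-201. Acvr2b-202, not counted, has 1608 coding nt against 1584 in Acvr2b-201. Protein-coding transcripts held 89.0% ± 0.316 (SD, n = 2) of the 51 genes' TPM, and 87.8% over all genes with a protein-coding transcript. Fstl1 weighed heavily here: without it the share of the other genes was 95.1%, and that of processed transcripts was 0.727% in place of 7.93%.

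Several matrix and ligand genes divided their RNA among forms. Ltbp1-202 led Ltbp1 with 47.9% and 45.2% of TPM; it has a coding sequence of 4023 nt and a start of its own. The longer Ltbp1-201, with 5136 coding nt, held 31.5% and 35.9%. Ltbp4-205 held 46.95% and 47.4% of Ltbp4 TPM, and the 550-nt retained-intron entry Ltbp4-208 held 28.8% and 28.0% of TPM but 3.69% and 3.55% of the gene's counts. Fstl1-202, an 884-nt processed transcript, held 26.3% and 23.9% of Fstl1 TPM and 7.19% and 6.40% of its counts; it was picked out after its values were seen. Short entries therefore weigh more in TPM than in counts.

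In Id1, Smad1, Acvr1 and Inhba the leading transcript was shorter in full length than the longest protein-coding one. Shares were 97.6% and 96.0% for Id1-201 and 98.0% and 97.6% for Smad1-202. Those of Acvr1-203 were 77.7% and 79.6%, and those of Inhba-202 were 95.6% and 92.8%. Inhba-202 and the longer Inhba-201 have coding sequences of the same 1272 nt. Inhba-201 is 1957 nt in M4 and 6390 nt in M21, and the effect on the Inhba shares was not tested. Acvrl1 was the gene whose leading transcript differed between the libraries. Acvrl1-201 led in replicate 1 (45.2% and 8.32%) and Acvrl1-205 in replicate 2 (25.6% and 56.7%). Both carry the same 1506-nt coding sequence, and their credibility intervals overlapped in replicate 1 (0.728 to 3.78 and 0.408 to 3.38 TPM), so the order within Acvrl1 was not resolved at 406 and 438 counts.

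**Figure D4:**
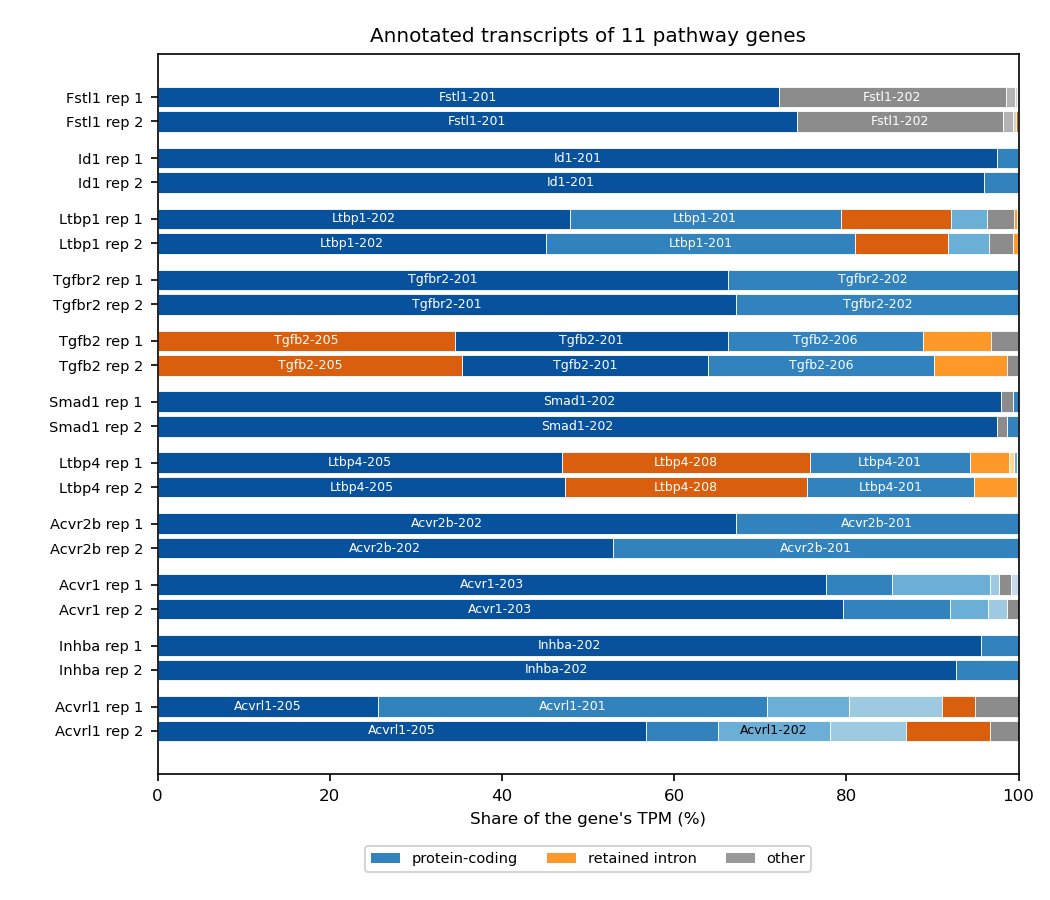
Share of each gene's TPM held by its annotated transcripts in both libraries for 11 genes, in blue for protein-coding, orange for retained-intron and grey for other transcripts. Tgfb2 is led by a retained-intron transcript at 34.5% and 35.4%, and Acvrl1 is the gene whose leading transcript changes between the libraries.

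Of 76 other genes of the pathway, 75 were matched and 55 were at 1 TPM or more in both libraries. Among 17 further ligands 5 reached that level, led by Gdf5, a joint-forming ligand, at 49.8 and 66.8 TPM, then Inha (8.09 and 7.69 TPM) and Gdf6 (2.39 and 3.47 TPM). Bmp10, Gdf2 and Inhbe were listed at 0 in both libraries. Of 6 receptors and co-receptors 4 reached 1 TPM, led by Neo1 (31.3 and 36.2 TPM), Rgmb (25.2 and 23.3 TPM) and Rgma (12.5 and 14.6 TPM), the last pair being BMP co-receptors.

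The leading secreted modulators were higher than the BMP traps named above. Of 15 further antagonists 11 were detected, led by Nbl1 at 121 and 135 TPM, Twsg1 (twisted gastrulation, a partner of chordin) at 117 and 130 TPM and Sostdc1 at 49.9 and 54.5 TPM. Of 13 processing and activation genes 12 were detected, led by Fbn2 (fibrillin) at 104 and 118 TPM, Thbs1 at 76.5 and 82.8 TPM and Bmp1, the protease that cleaves chordin, at 67.9 and 76.98 TPM. All 14 intracellular regulators were detected, led by Fkbp1a (417 and 433 TPM), which binds type I receptors, and the repressors Tgif2 (50.04 and 54.95 TPM) and Tgif1 (40.6 and 49.6 TPM). Of 10 target genes 9 were detected, led by Msx1 (93.6 and 128 TPM), Tgfbi (76.3 and 98.2 TPM) and Dlx5 (27.5 and 26.9 TPM). Between the libraries, 15 of the 67 tested genes of these lists were called higher in replicate 2 and 6 lower by the exact binomial test, beside the 13.2% and 14.3% given above.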

How the data were processed

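Total RNA of E14.5 limb was measured in 2 libraries of 1 group. Per the notes deposited with each sample, the tables use mm10 and the GENCODE M4 annotation, 1 replicate per table, from alignments to the transcriptome; no source used here names the aligner, the quantifier or the strand (not given in the sources used here). Expected counts, as the authors deposited them, are read numbers estimated for each gene or transcript and need not be whole. The TPM values deposited by the authors total 1000000 in each library, spike-ins included. The FPKM values deposited by the authors served as an alternative. The percent of a gene's TPM per transcript, and the signal bounds of TPM credibility intervals (level not given), are likewise as deposited, named per the file headers.

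Genes were matched to GENCODE M21 by Ensembl identifier, without version, and promoters to RefSeq by symbol; all 51 genes had an entry in the gene tables. Detection meant 1 TPM or more in both libraries, and ratios used a pseudocount of 0.1. Expected counts were rounded and tested by a two-sided exact binomial test given TMM library sizes (edgeR 4.0.16). Genes with a sum of 10 or more were tested, with Benjamini-Hochberg adjustment at 0.05. The test was checked on simulated counts that held counting error only, so the check does not cover a spread between libraries. A quasi-likelihood fit has no residual degrees of freedom with 1 library a side. Every one of the 51 genes was named. From each other pathway list the 3 genes of highest mean TPM were named. Transcripts were named for genes at a mean of 5 TPM or more that met either of these conditions. The leading transcript held under 60% in a library, or it was not the protein-coding one of greatest full length. Protein sequences were not used here. The genes and lists were chosen with earlier results of these data known. Python 3.11.15, scipy 1.17.1, R 4.3.3 and DESeq2 1.42.0 (size factors) were used.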

Additional observations from a re-analysis of the deposited data

How the results depend on the processing

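No paired analysis was possible because there is 1 group and no second group to share replicate numbers. Direction was the same under each alternative run for the 15 ratios, except that Bmp4 over Bmp2, within the spread, ran from -0.04 to 0.38 when each library was left out. With a pseudocount of 1, ratios of low genes moved: Tgfb1 over Tgfb2 to -4.39, Inhba over Inhbb to 2.12, Acvrl1 over Tgfbr1 to -2.17, Smad1 plus Smad5 over Smad9 to 5.47, Smad6 over Smad7 to 0.80 and Id1, Id2 and Id3 over Id4 to 6.07. With posterior mean TPM, Acvrl1 over Tgfbr1 moved to -2.02, Smad1, Smad5 and Smad9 over Smad2 and Smad3 to 0.59, and Smad6 over Smad7 to 0.78; the cause was not tested. Leaving out a library moved Gdf11 over Mstn between -1.67 (without replicate 2) and -0.71 (without replicate 1). The detected genes numbered 46 to 51 of 51 over thresholds of 0.5 to 2 TPM and single libraries. Calls between libraries ranged from 11 to 19 higher and 3 to 5 lower over DESeq2 size factors, total counts, spike-ins and other count filters, and were 0 higher and 0 lower with the edgeR exact test. The set fold gave 0 genes with a log2 ratio of 1 and 0 with a pseudocount of 1. Leading transcripts agreed in 31 genes at 5 TPM or more and 34 by posterior mean, and single libraries gave 34 to 35. Posterior means left 45 of 51 levels within the SD and rescaled FPKM 51 of 51. Depth limits the low genes: Bmp8a, Bmp6, Tgfb1, Inhbb and Smad9 rest on 59.4 to 149 counts a library.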

Other observations

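Some of the 51 genes are close neighbours in the genome (GRCm38). Acvrl1 and Acvr1b lie on chromosome 15, on the same strand and 28730 bp apart, at 6.17 and 9.51 TPM in replicate 1 and 7.68 and 9.88 TPM in replicate 2. Smad3 and Smad6, an activating and an inhibitory Smad, lie on chromosome 9, on the same strand and 195081 bp apart, and Smad3 was the higher in both libraries (19.3 and 21.5 TPM against 9.27 and 11.3 TPM). Gdf10 and Bmpr1a lie on chromosome 14 on opposite strands, 472750 bp apart, at 63.0 and 55.1 TPM in replicate 1 and 79.1 and 55.4 TPM in replicate 2.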
